A study of Mus with 12 samples.

Results

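The 10 genes described here encode the immediate early transcription factors of the AP-1 and Egr families: Fos, Fosb, Fosl1 and Fosl2 of the Fos family, Jun, Junb and Jund of the Jun family, and Egr1, Egr2 and Egr3 of the Egr family. They were followed in RNA sequencing of whole uteri from pregnant ICR mice aged 8 weeks, with 3 mice on each of 4 days of pregnancy. The implantation stage comprises E0.5 and E4.5, the labor stage comprises E15.5 and E18.5, and the labels name no transgene and no treatment. Each stage was deposited as its own gene table, in which each member was taken from the rows that carry its gene name and an Ensembl transcript. This rule gave 10 rows of 87235 in the table of the implantation stage and 11 rows of 40787 in the table of the labor stage, where Junb has a second row.

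Immediate early genes are transcribed within minutes of a stimulus from transcription factors already present in the cell, without new protein synthesis. Fos proteins do not bind DNA alone and pair with a Jun protein through a leucine zipper, whereas Jun proteins can also pair with each other, and such pairs are called AP-1. Egr proteins are zinc finger factors that are induced by many of the same kinases. In the uterus, Fos is known as an early estrogen-responsive gene of the epithelium, and AP-1 in the myometrium is known for its action on contraction genes such as the gap junction gene Gja1.

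Levels are given as FPKM, the fragments per kilobase of transcript scaled to the mapped fragments of the library, that the authors deposited for every library, so that genes of different length can be set side by side within a table. The 2 tables were made separately, and levels were tested only within a table. In the implantation stage, the deposited counts (58020989 to 70906881 in sum per library) were tested with edgeR's quasi-likelihood test. In the labor stage the FPKM table was used, for which the depth is not known, and log2(FPKM + 0.1) was tested with limma, so that its fold changes are on that scale and understate the change of low genes. The tests took in every row whose mean reached 0.1 FPKM, with Benjamini-Hochberg adjustment over 59732 and 30928 rows. A gene was taken to meet the study's criterion when its log2 fold change was at least 1 in either direction with an unadjusted p under 0.05, and to pass the adjusted threshold when its adjusted p was under 0.05. The p-values measure the spread between these mice, and in whole uterus fewer cells of a type and less RNA per cell cannot be told apart.

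A pair of libraries stood apart. E4.5 replicate 3 held 933 FPKM summed over 11 ovary markers, against 8.93 to 11.4 FPKM in the other 5 libraries of its table, with 94.0 FPKM of 6 oviduct markers against 8.60 to 25.1 FPKM. Its 13 uterine markers summed to 237 FPKM, against 727 to 985 FPKM. E15.5 replicate 1 held 79.1 FPKM of 9 trophoblast markers, against 6.41 and 8.65 FPKM in the other E15.5 uteri, 1.76 FPKM of 7 yolk sac markers against 109 and 800 FPKM, and 28.0 FPKM of 8 neutrophil markers against 3.32 and 2.26 FPKM. The uterine markers, which include Esr1, Pgr, Myh11 and Acta2, were all detected in all 12 libraries.

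Jund was the highest member on all 4 days, whereas the order below it changed. Its mean level ran from 17.7 ± 0.659 FPKM (SD, n = 3) at E4.5 to 35.3 ± 4.47 FPKM (SD, n = 3) at E18.5. Its range did not overlap that of the next gene, Jun, on 3 of the days, whereas at E4.5 the next gene was Fosl2 and the ranges overlapped. Fosl2 and Fos overlapped at E0.5 and E15.5 and were separate at E4.5, with Fosl2 higher, and at E18.5, with Fos higher. Fosb, Fosl1, Egr2 and Egr3 stayed below 2 FPKM in every library. The lowest member was Fosl1 at E0.5 and E4.5 and Egr3 at E15.5 and E18.5.

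**Figure D1:**
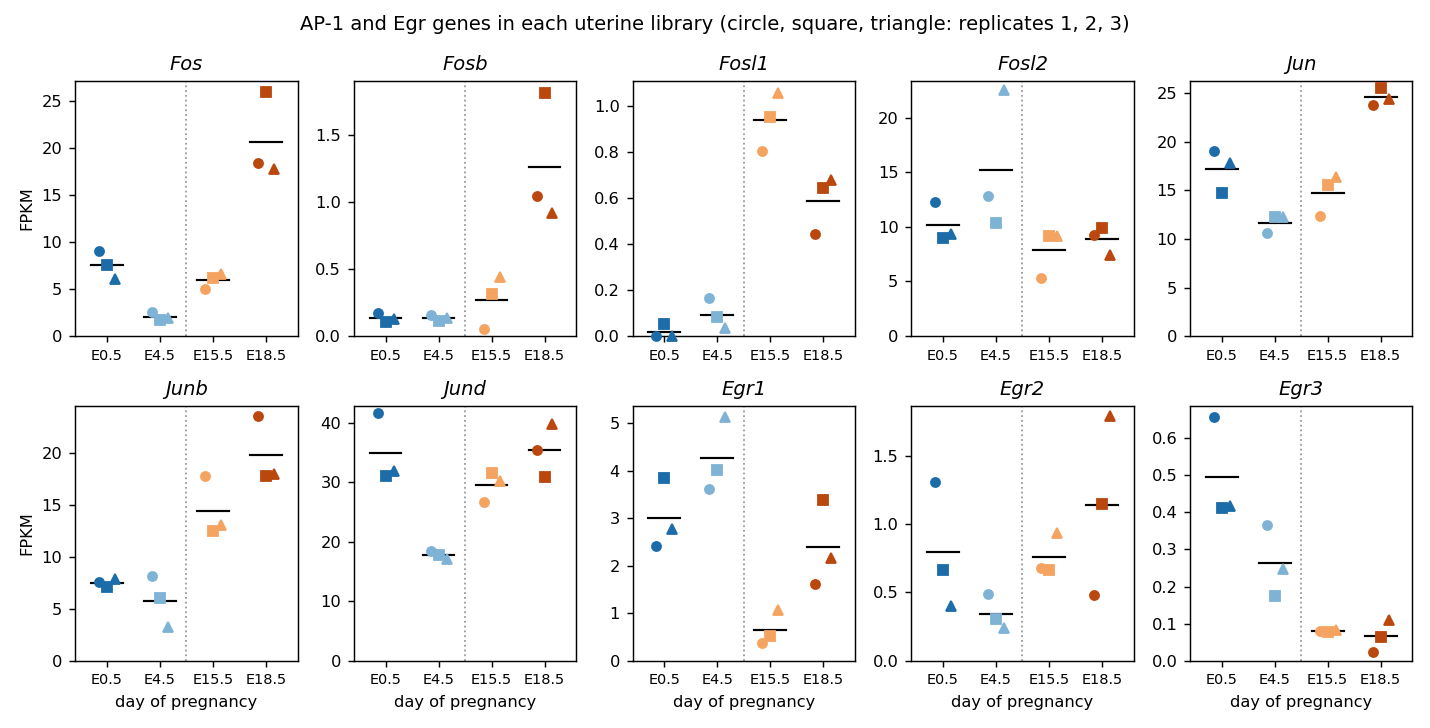
FPKM (y axis, linear, from 0) of each of the 10 genes by day of pregnancy (x axis), with 1 point per uterus, circles, squares and triangles for replicates 1, 2 and 3, and a bar at the mean of each day. The dotted line separates the 2 tables. Fos lies between 17.7 and 25.9 FPKM at E18.5 and between 1.66 and 2.51 FPKM at E4.5.

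The first comparison asked how the members differed between E0.5, soon after mating, and E4.5, around implantation. Of the 10 members, 9 passed the filter on low values. Fos was higher at E0.5. Jund, Egr3 and Jun lay above their E4.5 levels without overlap but passed neither threshold, and the other tested members overlapped between the days. Fos alone met the study's criterion, 1 of 9 members, where 6.37% of all rows did so in this direction. None of the 9 met it as lower at E0.5, where 5.82% of all rows did. Fos was also the 1 member that passed the adjusted threshold, which 0.763% of all rows passed as higher at E0.5. At an unadjusted p under 0.05 there were 3 members, Fos, Jund and Jun, beside 17.0% of all rows in either direction. The 3 libraries of E0.5 all lay above the 3 of E4.5 for 4 members (Fos, Jun, Jund and Egr3), as they did for 12.8% of all rows, and no member showed the opposite order, which 12.5% of all rows did. The median log2 fold change of the 9 members was 0.57, beside -0.01 for all rows tested, with 6 members above 0 and 3 below.

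Fos, the founding partner of AP-1 and the most rapidly induced member of its family, stood at 9.09, 7.53 and 6.05 FPKM in the 3 uteri of E0.5. At E4.5 it stood at 2.51, 1.66 and 1.91 FPKM. The days did not overlap, and the counts behind these levels were 1827, 1313 and 1240 at E0.5 and 504, 320 and 366 at E4.5. Fos rose 3.71-fold at E0.5 relative to E4.5 (log2 fold change 1.89, SE 0.27, edgeR adjusted p = 0.0353). The adjusted p depended on the libraries used: when each library was left out in turn it ranged from 0.0174 to 0.158 in edgeR and was under 0.05 in 1 of 6 fits, the fit without E4.5 replicate 3, where the log2 fold change was 1.82. Fos met the study's criterion in all 6 of these fits.

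Fosl2, which encodes Fra-2, a member with slower and longer lasting induction, overlapped between the days. It stood at 12.3, 8.97 and 9.36 FPKM at E0.5 and at 12.8, 10.3 and 22.5 FPKM at E4.5. The highest value was that of E4.5 replicate 3. The log2 fold change was -0.56 (95% interval -1.28 to 0.16, edgeR adjusted p = 0.385), and without E4.5 replicate 3 it was -0.21.

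In the rows with an Ensembl transcript, Fosb and Fosl1 were near the lower limit of the table. Fosb stood at 0.174, 0.102 and 0.128 FPKM at E0.5 and at 0.158, 0.113 and 0.138 FPKM at E4.5, so that the days overlapped (log2 fold change -0.02, 95% interval -0.99 to 0.94). Fosl1, which encodes Fra-1, was under the filter and was not tested. Its counts were 0, 8 and 0 at E0.5 and 30, 15 and 6 at E4.5.

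Among the Jun genes, Jund, the member least dependent on stimulation, came nearest to Fos. Jund stood at 41.6, 31.1 and 31.9 FPKM at E0.5 and at 18.4, 17.8 and 17.1 FPKM at E4.5, with a wide gap between the days. The difference was 1.97-fold (log2 fold change 0.98, SE 0.18) and lay just short of both thresholds, with an unadjusted p of 0.00093 (edgeR adjusted p = 0.0568). Without E4.5 replicate 3 the log2 fold change was 0.93 and the edgeR adjusted p 0.0316. The edgeR adjusted p was under 0.05 in 1 of the 6 fits lacking a single library and ranged up to 0.184. With the replicate number as a block it was 0.142. Over 12 alternative fits the log2 fold change lay between 0.85 and 1.07, meeting the study's criterion in 5 of them.

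Jun, the strongest activator of its family, stood at 19.1, 14.8 and 17.8 FPKM at E0.5 and at 10.6, 12.2 and 12.3 FPKM at E4.5. The days did not overlap, at a 1.48-fold difference (log2 fold change 0.57, SE 0.16, edgeR adjusted p = 0.138). Junb, which often restrains Jun, stood at 7.58, 7.10 and 7.84 FPKM at E0.5 and at 8.13, 6.07 and 3.21 FPKM at E4.5. The lowest Junb value was that of E4.5 replicate 3, and the log2 fold change of 0.36 (95% interval -0.49 to 1.22) was 0.06 without that library.

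The Egr genes did not follow a common direction between E0.5 and E4.5. Egr1, the member with the broadest induction, stood at 2.41, 3.85 and 2.76 FPKM at E0.5 and at 3.62, 4.02 and 5.13 FPKM at E4.5, with overlap between the days (log2 fold change -0.48, 95% interval -1.05 to 0.09, edgeR adjusted p = 0.353). Egr2, known from hindbrain patterning and myelination, stood at 1.31, 0.667 and 0.404 FPKM at E0.5 and at 0.490, 0.304 and 0.237 FPKM at E4.5. Its log2 fold change was 1.18 with a 95% interval from -0.08 to 2.45. The highest value was that of E0.5 replicate 1, without which the log2 fold change was 0.65. Egr3, known from muscle spindles and lymphocytes, stood at 0.656, 0.412 and 0.417 FPKM at E0.5 and at 0.367, 0.176 and 0.248 FPKM at E4.5, without overlap (log2 fold change 0.90, 95% interval -0.09 to 1.88).

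The second comparison asked how the members differed between E18.5, close to labor, and E15.5. Of the 10 members, 9 passed the filter, and 8 of these had a log2 fold change above 0. Fos, Fosb and Egr1 met the study's criterion as higher at E18.5, 3 of 9 members, beside 3.11% of all rows. None met it as lower, beside 2.93% of all rows. In limma 0 of 9 members passed the adjusted threshold, beside 0.0194% of all rows as higher at E18.5, and 6 members had an unadjusted p under 0.05 (Fos, Fosb, Fosl1, Jun, Junb and Egr1), beside 12.2% of all rows. No count test was run for this stage. The libraries of E18.5 all lay above those of E15.5 for 5 members (Fos, Fosb, Jun, Junb and Egr1), beside 10.9% of all rows, and all below for 1 member (Fosl1), beside 8.96% of all rows. The median log2 fold change was 0.46 over the 9 members and 0.02 over all rows tested.

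Fos stood at 18.4, 25.9 and 17.7 FPKM at E18.5 and at 5.04, 6.15 and 6.56 FPKM at E15.5. Every uterus of E18.5 lay far above every uterus of E15.5. The log2 fold change was 1.78 (SE 0.19, 3.42-fold, limma adjusted p = 0.0545), which met the study's criterion and fell just short of the adjusted threshold. Without E15.5 replicate 1 the log2 fold change was 1.67 (limma adjusted p = 0.0899). With each library left out in turn, the limma adjusted p ranged from 0.0835 to 0.235 and was under 0.05 in 0 of 6 fits. With the replicate number as a block it was 0.219.

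Fosb, whose induction usually accompanies that of Fos, stood at 1.05, 1.82 and 0.922 FPKM at E18.5 and at 0.0529, 0.313 and 0.442 FPKM at E15.5. The days did not overlap, and Fosb had the highest log2 fold change of the members, 2.01 (SE 0.52, limma adjusted p = 0.211). Its size rested on low values at E15.5: it was 1.47 without E15.5 replicate 1 and 0.83, under the criterion, with a pseudocount of 1 FPKM. Fosl1 was the 1 member in the opposite order, at 0.443, 0.645 and 0.679 FPKM at E18.5 but at 0.804, 0.954 and 1.06 FPKM at E15.5 (log2 fold change -0.60, SE 0.25, limma adjusted p = 0.403). Fosl2 stood at 9.28, 9.86 and 7.42 FPKM at E18.5 and at 5.33, 9.14 and 9.13 FPKM at E15.5, with overlap (log2 fold change 0.20, 95% interval -0.37 to 0.77).

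The Jun genes differed less than Fos. Jun stood at 23.8, 25.5 and 24.4 FPKM at E18.5 and at 12.4, 15.6 and 16.4 FPKM at E15.5, a 1.67-fold difference without overlap (log2 fold change 0.74, SE 0.14, limma adjusted p = 0.141). Junb stood at 23.6, 17.8 and 18.0 FPKM at E18.5 and at 17.8, 12.5 and 13.1 FPKM at E15.5. Its lowest value at E18.5 lay barely above its highest at E15.5 (log2 fold change 0.46, SE 0.19, limma adjusted p = 0.399). The second Junb row, with a different Ensembl transcript, was at 0 in 4 of the 6 libraries and at 0.348 FPKM or less in the others. Jund stood at 35.5, 30.8 and 39.7 FPKM at E18.5 and at 26.6, 31.6 and 30.2 FPKM at E15.5, with overlap (log2 fold change 0.26, 95% interval -0.08 to 0.59).

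Egr1 stood at 1.61, 3.38 and 2.16 FPKM at E18.5 and at 0.368, 0.512 and 1.06 FPKM at E15.5. The days did not overlap, with a log2 fold change of 1.78 (SE 0.41, 3.43-fold, limma adjusted p = 0.182) that met the study's criterion. Without E15.5 replicate 1 the value was 1.497, and with a pseudocount of 1 FPKM it was 1.03, still within the criterion. Egr2 stood at 0.477, 1.15 and 1.79 FPKM at E18.5 and at 0.681, 0.666 and 0.937 FPKM at E15.5, with overlap (log2 fold change 0.38, 95% interval -0.67 to 1.42). Egr3 was under the filter, at 0.0234 to 0.111 FPKM over the 6 libraries, and its row in this table lists 1 Ensembl transcript where the row of the implantation stage lists 4.

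**Figure D2:**
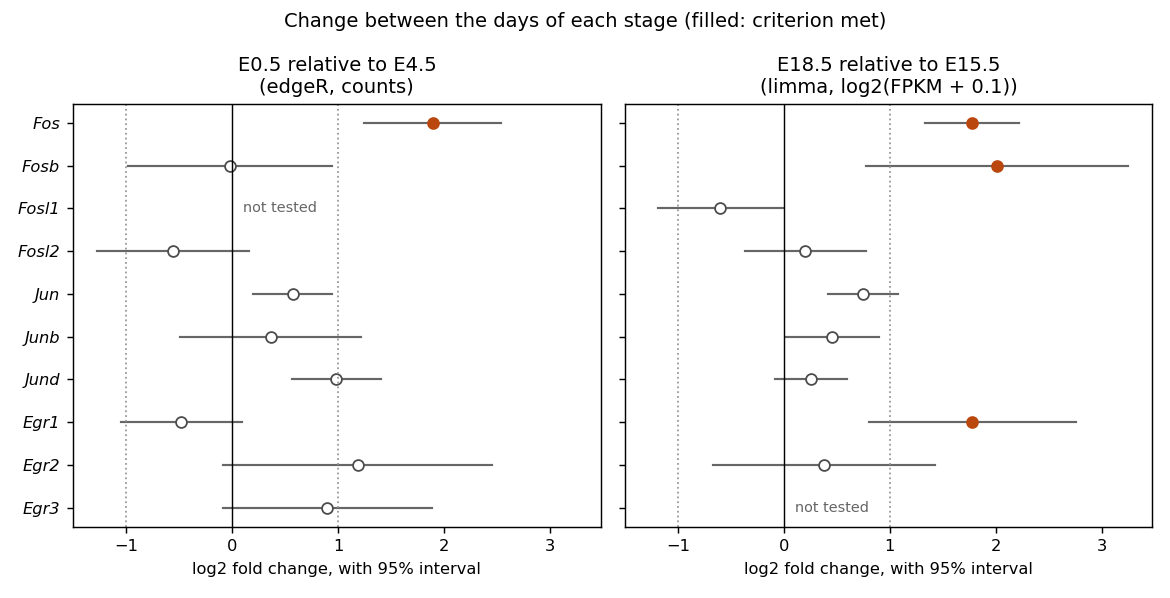
Log2 fold change (x axis) of each member (y axis) with its 95% interval, on the left E0.5 over E4.5 from edgeR on counts, on the right E18.5 over E15.5 from limma on log2(FPKM + 0.1). Filled points met the study's criterion: Fos at 1.89 on the left, and Fosb at 2.01, Fos at 1.78 and Egr1 at 1.78 on the right.

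Because Fos was higher at E0.5 in the first stage and at E18.5 in the second, the differences themselves were compared between the stages, with both tables fitted in limma on log2(FPKM + 0.1) and 8 members present in both fits. Egr1 was the 1 member of 8 whose 2 differences were themselves different at the adjusted threshold, beside 2.69% of 20777 pairs of rows. On this scale its log2 fold change was -0.50 in the implantation stage (E0.5 over E4.5) and 1.78 in the labor stage (E18.5 over E15.5), a difference of -2.28 (SE 0.50, limma adjusted p = 0.0368). With each of the 12 libraries left out in turn, the limma adjusted p ranged from 0.0207 to 0.0964 and was under 0.05 in 3 of 12 fits, and the difference lay between -2.00 and -2.65. With a pseudocount of 1 FPKM the difference was -1.43 (limma adjusted p = 0.0382). For Fos the log2 fold changes were 1.85 and 1.78, a difference of 0.07 with a 95% interval from -0.60 to 0.75. For Fosb the difference was -2.03 (limma adjusted p = 0.117), or -0.83 with a pseudocount of 1 FPKM, and for Jund 0.70 (limma adjusted p = 0.1201). Over all pairs of rows the median difference was -0.14.

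Within its family, Fos held 38.9% to 45.2% of the summed FPKM of the Fos family at E0.5 and 7.79% to 16.1% at E4.5, where Fosl2 held 81.9% to 91.5%. The 7.79% and the 91.5% were those of E4.5 replicate 3, and in the other E4.5 libraries Fos held 16.1% and 13.6%. At E15.5 Fos held 37.1% to 44.9%, and at E18.5 it held 63.1% to 67.8%, so that the days of each stage were separate for this share. The summed level of the Fos family itself overlapped between E0.5 (15.53 to 21.5 FPKM) and E4.5 (12.2 to 24.6 FPKM), and was separate between E15.5 (11.2 to 17.2 FPKM) and E18.5 (26.7 to 38.2 FPKM). The 24.6 FPKM was that of E4.5 replicate 3. The other E4.5 libraries, at 15.63 and 12.2 FPKM, overlapped only narrowly with E0.5. The Jun family summed to 52.96 to 68.3 FPKM at E0.5, 32.6 to 37.1 FPKM at E4.5, 56.8 to 59.7 FPKM at E15.5 and 74.1 to 82.9 FPKM at E18.5. In every library the Jun family was higher than the Fos family in sum, with a Fos to Jun ratio between 0.198 and 0.755. Egr1 held 80.9% to 91.4% of the Egr family at E4.5, its highest share, and 32.6% to 50.96% at E15.5, where Egr2 held 45.1% to 60.3%. These shares were not tested.

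**Figure D3:**
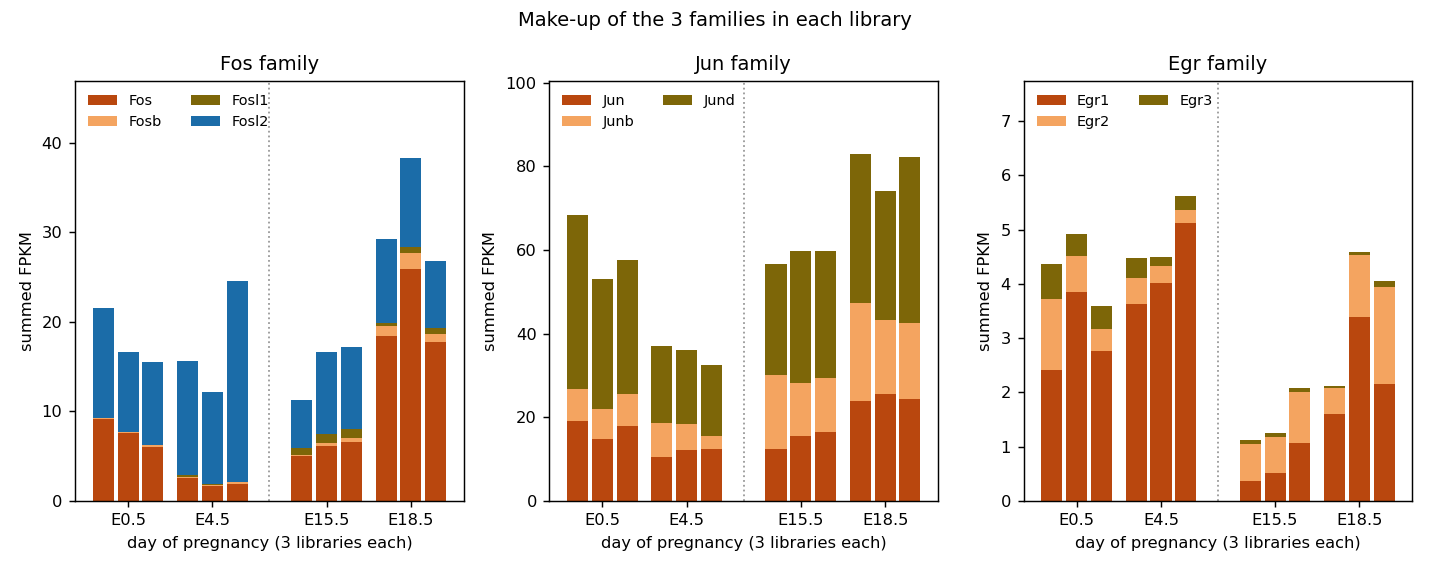
Summed FPKM (y axis, stacked, from 0) of the Fos, Jun and Egr families in each of the 12 libraries, in the order of replicates 1, 2 and 3 within each day (x axis), with the 2 tables separated by a dotted line. Fos makes up 7.79% to 16.1% of the Fos family at E4.5, with the lowest share in replicate 3, and 63.1% to 67.8% at E18.5.

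Fos is induced in cells by mitogen-activated kinases that act on Srf and its Elk partners, and by Creb1. Of 18 such upstream kinases and factors, all were tested in both stages, and 0 met the study's criterion in either direction at either stage, in edgeR, limma, DESeq2 for the implantation stage, or with any library left out. Of all rows in the main fits, 6.37% met it as higher at E0.5 and 5.82% as lower, and 3.11% as higher at E18.5 and 2.93% as lower. In the implantation stage 4 of the 18 had an unadjusted p under 0.05, beside 17.0% of all rows, among them Map3k1 and Elk3, higher at E0.5, and Mapk9, lower at E0.5. In the labor stage they were 3, beside 12.2% of all rows: Mapk3, Mapk7 and Elk4, all higher at E18.5. The adjusted threshold was passed by 1 gene of the list in DESeq2 and by 1 in edgeR without E4.5 replicate 3, both in the implantation stage, and by 0 in the other fits. The shares of all rows that passed in these alternative fits are not given. The genes of this list were named after their values were seen. The median log2 fold change of the 18 genes was -0.00 and 0.11 in the 2 stages. Egr4, the remaining Egr gene, was listed at 0 in all libraries but E15.5 replicate 1. The Egr corepressors Nab1 and Nab2 were lower at E0.5 than at E4.5 without overlap, as were 12.5% of all rows. Their log2 fold changes were -0.60 and -0.66 (edgeR adjusted p = 0.165 and 0.176). In the labor stage 0 tested genes of this list were separate between the days.

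Other basic leucine zipper genes that pair with AP-1 proteins were taken from a list of 13. Atf3, a stress-induced partner of Jun, stood at 11.1, 3.24 and 1.71 FPKM at E0.5 and at 0.204, 1.11 and 0.605 FPKM at E4.5 (log2 fold change 3.08, SE 0.86, edgeR adjusted p = 0.143). This difference met the study's criterion, and without E0.5 replicate 1, its highest library, it was 1.99. At E18.5 Atf3 was again higher, at 3.89, 5.78 and 4.52 FPKM against 1.41, 1.87 and 1.85 FPKM at E15.5 (log2 fold change 1.41, SE 0.20, limma adjusted p = 0.0911). Batf, a partner known from lymphocytes, stood at 1.26, 1.299 and 1.15 FPKM at E18.5 and at 5.37, 1.84 and 1.72 FPKM at E15.5 (log2 fold change -1.01, limma adjusted p = 0.407). Its high value was that of E15.5 replicate 1, without which the log2 fold change was -0.49 and missed the criterion. The criterion was also missed without any one of the E18.5 libraries, with no filter on low values, and with a pseudocount of 1 FPKM.

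The 28 other immediate early genes were counted in the same way. Between E0.5 and E4.5, 2 of them met the criterion as higher at E0.5 and 1 as lower, beside 6.37% and 5.82% of all rows, and their median log2 fold change was 0.08. With each library left out in turn, 1 to 3 of the 28 met it as higher and 1 to 2 as lower. Gadd45b, a stress sensor, had a log2 fold change of 1.41 (edgeR adjusted p = 0.0963) and Nfkbiz, a nuclear IkB protein, of 1.33 (edgeR adjusted p = 0.188), which was 0.95, under the criterion, without E4.5 replicate 3. Myc stood at 2.89, 2.63 and 3.37 FPKM at E0.5 and at 14.1, 14.2 and 3.46 FPKM at E4.5 (log2 fold change -1.84, edgeR adjusted p = 0.152), and its low value at E4.5 was that of replicate 3.

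Between E18.5 and E15.5, 4 of the 28 met the criterion as higher and 0 as lower, beside 3.11% and 2.93% of all rows, with a median log2 fold change of 0.35. Of the 28, 14 were higher at E18.5 without overlap against 2 lower, beside 10.9% and 8.96% of all rows. Nr4a1, an orphan nuclear receptor, stood at 1.52, 2.56 and 2.62 FPKM at E18.5 and at 0.484, 0.529 and 1.06 FPKM at E15.5 (log2 fold change 1.60, limma adjusted p = 0.167, and 0.93, under the criterion, with a pseudocount of 1 FPKM). Dusp1, the phosphatase that switches off mitogen-activated kinases, had a log2 fold change of 1.2995 (limma adjusted p = 0.141), and Ctgf, a matricellular protein, of 1.29 (limma adjusted p = 0.140). The fourth gene was Cyr61, also matricellular, at 1.25. With each library left out in turn, 4 to 6 of the 28 met the criterion as higher and at most 1 as lower. With all libraries, none of the 28 passed the adjusted threshold in edgeR or in limma in either stage, and 4 and 13 had an unadjusted p under 0.05 in the 2 stages, beside 17.0% and 12.2% of all rows. In the implantation stage 2 passed it in edgeR without E4.5 replicate 3, and DESeq2 called 4. The shares of all rows that passed in these alternative fits are not given.

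**Figure D4:**
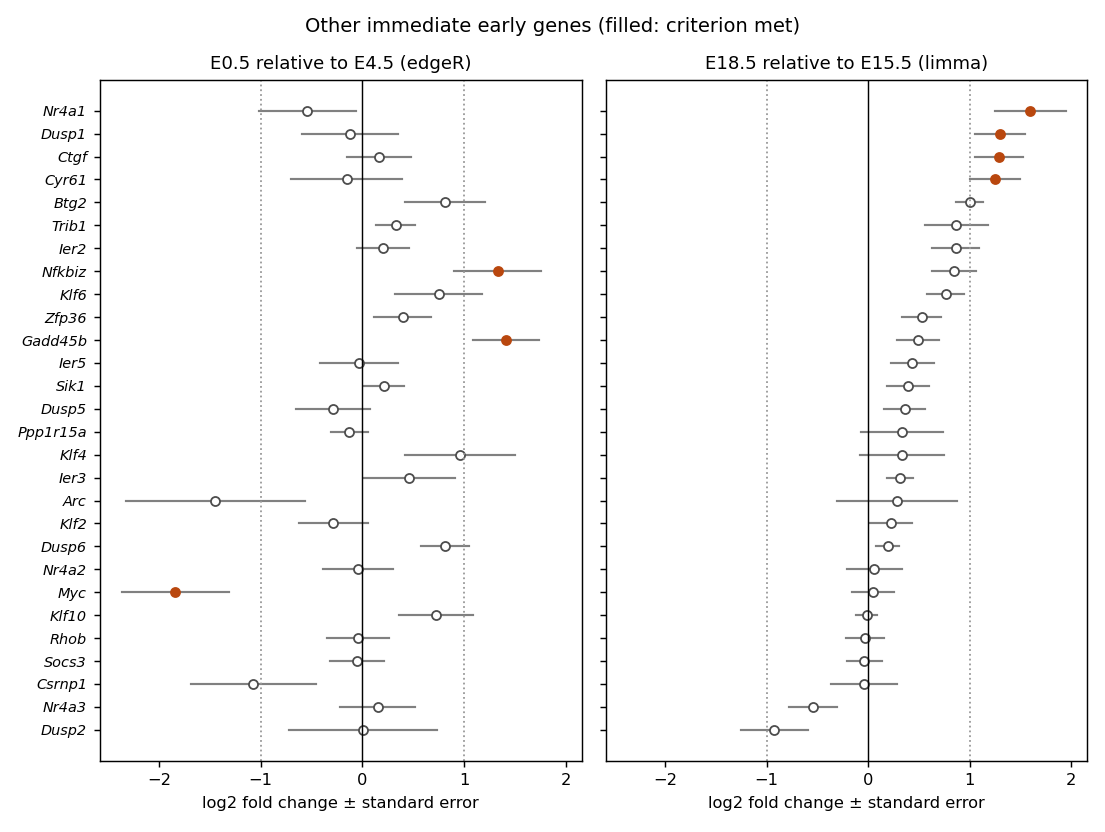
Log2 fold change (x axis) with its standard error for 28 other immediate early genes (y axis, ordered by the value at E18.5 relative to E15.5), for E0.5 relative to E4.5 from edgeR (left) and E18.5 relative to E15.5 from limma (right). Filled points met the study's criterion, 3 on the left with Myc at -1.84 and 4 on the right with Nr4a1 at 1.60.

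Of 18 genes known as targets of AP-1 or Egr factors, 16 were tested in the implantation stage, where 5 met the criterion as higher at E0.5 and 2 as lower, beside 6.37% and 5.82% of all rows. None passed the adjusted threshold in edgeR and 7 had an unadjusted p under 0.05, beside 17.0% of all rows, whereas 2 passed it in limma, 5 in DESeq2 and 4 in edgeR without E4.5 replicate 3. The shares of all rows that passed in these alternative fits are not given, so that these counts cannot be set beside them. The matrix metalloproteinase Mmp3 had a log2 fold change of 4.22, the cyclooxygenase Ptgs2 of 3.79 and the chemokine Ccl2 of 3.54. Mmp3 missed the criterion without E4.5 replicate 2, and Ccl2 missed it without E0.5 replicate 1, E0.5 replicate 2 or E4.5 replicate 1. Gja1, the gap junction gene of decidua and myometrium, stood at 8.08, 7.30 and 6.87 FPKM at E0.5 and at 27.0, 26.6 and 108 FPKM at E4.5 (log2 fold change -2.82, edgeR adjusted p = 0.0738), and the inhibitor Timp1 had a log2 fold change of -2.10. The highest value of both was that of E4.5 replicate 3. Without that library the log2 fold change was -1.87 for Gja1, which still met the criterion, and -0.65 for Timp1, which did not. Timp1 then stood at 2.83 and 2.04 FPKM at E4.5, overlapping its 1.10 to 2.31 FPKM at E0.5. With any one E0.5 library left out, and in limma, 1 target rather than 2 met the criterion as lower. In the labor stage 17 were tested, with 3 higher at E18.5 and 2 lower, beside 3.11% and 2.93% of all rows. Oxtr, the oxytocin receptor, stood at 6.76, 5.52 and 3.89 FPKM at E18.5 and at 1.496, 1.06 and 1.10 FPKM at E15.5 (log2 fold change 2.04, SE 0.24, limma adjusted p = 0.0709). Ptgs2 had a log2 fold change of 1.40 and the matrix gene Fn1 of 1.04, whereas the secreted phosphoprotein Spp1 stood at -1.91 and the collagenase Mmp13 at -1.88. Fn1 was 0.82 without E15.5 replicate 1 and 0.87 without E18.5 replicate 1, Mmp13 was -0.57 with a pseudocount of 1 FPKM, and Ptgs2 missed the criterion without E18.5 replicate 2, E15.5 replicate 2 or E15.5 replicate 3. Gja1 overlapped between E18.5 (3.70 to 12.8 FPKM) and E15.5 (1.88 to 16.4 FPKM). The targets thus included members of both directions in each stage, with medians of 0.26 and 0.05.

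Markers of other cells and of stress were set beside these levels. In the implantation stage 6.37% of all rows met the criterion as higher at E0.5 and 5.82% as lower, and in the labor stage 3.11% as higher at E18.5 and 2.93% as lower. Krt8, an epithelial keratin, stood at 53.9 to 75.6 FPKM at E0.5 but 14.3 to 22.1 FPKM at E4.5 (log2 fold change 1.96, edgeR adjusted p = 0.0248), and at 225 to 297 FPKM at E18.5 but 51.02 to 133 FPKM at E15.5 (log2 fold change 1.56, limma adjusted p = 0.173). Of the other epithelial markers, Krt18 had log2 fold changes of 0.35 and 0.91 and Epcam of 0.98 and 0.54. The 8 heat shock genes summed to 132 to 146 FPKM at E0.5 but 186 to 236 FPKM at E4.5, opposite in order to Fos, and to 565 to 599 FPKM at E18.5 but 403 to 504 FPKM at E15.5, in the same order. Hsph1 and Hsp90aa1 met the criterion as lower at E0.5 (log2 fold change -1.49 and -1.36) and none as higher. Hspa1a and Hspa1b met the criterion as higher at E18.5 (log2 fold change 1.57 and 1.31), Hspa1b not without E15.5 replicate 1. The trophoblast markers summed to 97.6 to 131 FPKM at E18.5, and 3 of the 6 tested met the criterion as higher there, while they were at 0.644 FPKM or less in sum at E0.5 and E4.5. Of the 10 macrophage and lymphocyte markers 7 were tested in the implantation stage, and 3 met the criterion as higher at E0.5 and 0 as lower. Itgam (log2 fold change 3.52, edgeR adjusted p = 0.0103, in a row shared by 3 genes) and Csf1r (1.88, edgeR adjusted p = 0.0449) also passed the adjusted threshold, and Adgre1 stood at 1.10 (edgeR adjusted p = 0.121). The adjusted calls depended on the libraries: with each library left out in turn, the edgeR adjusted p ranged from 0.0026 to 0.0949 for Itgam, from 0.00463 to 0.195 for Csf1r and from 0.00795 to 0.113 for Krt8, and with the replicate block it was 0.0796, 0.122 and 0.111, while all 3 met the criterion in each of these fits. The markers summed to 31.6 to 44.0 FPKM at E0.5 but 20.0 to 27.2 FPKM at E4.5, in the same order as Fos. At E18.5 and E15.5 the sums overlapped (69.1 to 81.1 and 73.6 to 86.0 FPKM). None of the 6 markers tested there met the criterion as higher and 2 met it as lower at E18.5, the natural killer cell genes Ncr1 (-1.86) and Nkg7 (-1.57), both of which missed it with a pseudocount of 1 FPKM. Of the neutrophil markers, 2 of 4 tested met the criterion as higher at E0.5, Ly6g (3.05) and Csf3r (1.88), and 1 of 5 as higher at E18.5, Cxcr2 (2.61), with none lower. Each of these calls was lost in 2 or more fits lacking a single library, and the summed neutrophil levels overlapped in both stages (1.198 to 3.37 FPKM at E0.5 and 1.14 to 2.12 FPKM at E4.5, 2.07 to 6.36 FPKM at E18.5 and 2.26 to 28.0 FPKM at E15.5). The part of epithelium, trophoblast, macrophages, neutrophils or stress in the levels of Fos, Fosb and Egr1 was not tested.

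The 5 protein-coding rows whose log2 levels were most like those of Fos were found among 10078 rows with at least 1 FPKM in both tables, by Pearson's r over the 12 libraries after the mean of each table was removed. They were Il1f8, an interleukin of the IL-36 group, with r = 0.95, Cpm, a carboxypeptidase, with 0.93, a row shared by Zfpm1 and Galnt2l with 0.93, Osbpl3, an oxysterol-binding protein, with 0.93, and Efna4, an ephrin, with 0.92. The libraries of each day share their day, so that these values describe the pattern over days. Il1f8 stood at 1.97 ± 0.709 FPKM at E0.5 but 0.185 ± 0.0274 FPKM at E4.5, and at 6.96 ± 2.48 FPKM at E18.5 but 1.62 ± 0.665 FPKM at E15.5 (SD, n = 3 each). Among the members, Jun came closest to Fos with r = 0.91 and stood at place 13 of the 10078 rows, followed by Jund with 0.81 at place 179. Fosl2 had r = -0.11, and Fosl1, which was not among the 10078 rows, had -0.66. With the mean of each day removed the order of the members changed: r with Fos was 0.67 for Fosb, 0.53 for Egr2 and Egr3, 0.46 for Fosl2, 0.43 for Fosl1, 0.38 for Egr1, 0.20 for Jun, 0.19 for Jund and 0.0088 for Junb over the same 12 libraries.

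In the table of the implantation stage, which gives positions that overlap the RefSeq genes of the same names on GRCm38 for all 10 members, Fos lies on chromosome 12 from 85473890 to 85477273 and Egr1 on chromosome 18 from 34859823 to 34864984. Jund and Junb lie on chromosome 8, from 70698949 to 70700616 and from 84976910 to 84978718. Each of these rows carries 1 gene name. Whether reads of overlapping transcripts were counted in them is not known, as the assignment of reads is not given.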

How the data were processed

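RNA of 12 uteri was sequenced by a service provider. Per the authors' methods, reads were trimmed (Cutadapt) and aligned (Bowtie2 and Tophat2), transcripts assembled (StringTie) and FPKM estimated (Ballgown), and the FPKM were deposited by the authors. The submitters' processing notes name Bowtie 0.12.2, HISAT2 2.0 and StringTie 1.3.0 and the builds mm8 and mm10, and the labels and the study's methods differ on poly(A) selection or ribosomal RNA depletion, which bears on the FPKM of unspliced or non-polyadenylated RNA. The counts of the implantation stage were deposited as whole numbers, and how reads were assigned to rows is not given in the sources used here. Deposited FPKM values of 0.0001 were set back to 0. Unnamed rows were kept and took 1.02% to 1.86% of each library's counts.

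The members and gene lists were chosen with earlier results of these data known. Counts were tested with edgeR 4.0.16 (TMM scaling, quasi-likelihood test) and log2(FPKM + 0.1) with limma 3.58.1 (R 4.3.3), in each case over all rows whose mean reached 0.1 FPKM, from samples grouped by day. The text names all 10 members and the 5 rows most like Fos. Per list it names up to 3 genes with the highest and the lowest log2 fold change among those that met the study's criterion. Other genes fall outside this rule, among them Nab1, Nab2, Cyr61, Krt18, Epcam and, in the labor stage, Gja1. They should be read as named after their values were seen. List genes absent under their symbol were looked up under RefSeq synonyms (GRCm38.p6). The fits were tested on simulated data. The alternatives were other filters, scaling and pseudocounts, DESeq2 1.42.0, limma on the FPKM of the implantation stage, the replicate number as a block, and fits lacking a single library. With 3 mice per day an exact permutation test of a single value cannot give a p under 0.1, so none was used. Sequences of promoters and proteins were not used here. Some results of the gene lists are not reported here.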

Additional observations from a re-analysis of the deposited data

Results flagged for a closer look

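Egr1 stood out because its difference between the days of the implantation stage and its difference between the days of the labor stage were themselves different. The log2 fold change of E0.5 relative to E4.5 was -0.50 and that of E18.5 relative to E15.5 was 1.78, and the first minus the second was -2.28 (SE 0.50, limma adjusted p = 0.0368). At E15.5 the lowest Egr1 level, 0.368 FPKM, was that of replicate 1, which also stood apart in its trophoblast and yolk sac markers. Without that library the difference was -2.00 (limma adjusted p = 0.0618). This was not particular to it, as without E18.5 replicate 2 the difference was also -2.00 (limma adjusted p = 0.0931). The limma adjusted p was under 0.05 in 3 of the 12 fits lacking a single library. The part of E15.5 replicate 1 in the difference was otherwise not tested.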

How the results depend on the processing

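In the implantation stage the number of members that met the study's criterion, 1 in the report, was 2 with a mean of at least 1 FPKM, with 75th percentile scaling, in DESeq2 and with the replicate block, Jund being added in the first pair and Egr2 in the second. With each library left out in turn it was 1 to 4 (2 without E0.5 replicate 2, 3 without E0.5 replicate 3 and 4 without E4.5 replicate 1, where Fos, Jund, Egr2 and Egr3 met it). The number past the adjusted p, 1 in the report, was 2 with the FPKM minimum, 75th percentile scaling and limma, 3 in DESeq2 and 0 with the replicate block, and 0 to 2 with each library left out (2 without E4.5 replicate 3, 0 without any other). In the labor stage 2 or 3 members met the criterion and 0 passed the adjusted p in all alternatives. For the difference between the stages 1 member passed with a pseudocount of 1, 0 with the replicate block, and 0 or 1 with each library left out. The shares of all rows that passed in these alternative fits are not given.

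Values near 0 changed sign. Fosb in the implantation stage was 0.063 with 75th percentile scaling and -0.23 to 0.13 with each library left out. In the labor stage, Fosl2 was -0.055 to 0.33 and Egr2 -0.0067 to 0.85 with each library left out. For the difference between the stages, with a pseudocount of 1 Fos was -0.14 and Junb -0.041, and with each library left out Fos was -0.069 to 0.24 and Junb -0.36 to 0.29. The cause was not tested.

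Same-numbered replicates did not deviate together (r of deviations from the day means -0.06 to 0.02), so the numbers were not taken as pairs. With the replicate block the log2 fold change of Fos in the implantation stage was 1.91 (edgeR adjusted p = 0.0991), and that of Egr1 between the stages was -2.28 (limma adjusted p = 0.0841).

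With 3 mice per day, a difference whose interval spans 0 was not detectable here, which does not show that it is absent. Counts of the labor stage were not used here, so that the depth behind Fosb, Egr2 and Egr3, all under 2 FPKM, is not known there. Members under a stricter filter gave no value.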

Other observations

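The tables also hold rows that carry a member's name without an Ensembl transcript, which the levels above do not include. For Fosl2 such a row on chromosome 5, from 32158573 to 32160143, begins 730 bases beyond the end of the annotated row on the same strand. It stood at 2.02, 1.65 and 1.57 FPKM at E0.5 and at 0.299, 0.779 and 0.692 FPKM at E4.5, without overlap, with a log2 fold change of 1.59 (edgeR adjusted p = 0.121), where the annotated Fosl2 row had -0.56. This row was chosen after its values were seen, and whether it belongs to the Fosl2 transcript was not tested. Fosl1 had such a row in each stage, with means of 0.798 FPKM in the implantation stage and 1.34 FPKM in the labor stage. Fos had such a row in the labor stage, with a mean of 1.04 FPKM. The Fosl1 and Fos rows of this kind overlapped between the days.

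On some days the extreme values of the members fell mostly in 1 uterus. E0.5 replicate 1 had the highest level of its day for 7 of 9 members, and E15.5 replicate 1 the lowest of its day for 7 of 9. E4.5 replicate 1 and E15.5 replicate 3 each had the highest of their day for 6 of 9, and E0.5 replicate 2 the lowest for 6 of 9. At E18.5 the lowest values fell 4, 2 and 3 times in replicates 1, 2 and 3. These counts were not tested, and no share over all rows is given beside them, so that they are not shown to be particular to the members.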
